A study of Mus musculus with 6 samples.

Results

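Genes for coupling and growth factors made by osteoclasts, 10 of the 23204 genes in the deposited table, were followed across 6 RNA-seq libraries of mouse osteoclasts. They were taken by symbol: *Cthrc1*, *Sphk1*, *Pdgfb*, *Tgfb1*, *Bmp1*, *Slit3*, *Wnt10b*, *Efnb2*, *Lif* and *Vegfa*. All 10 were in the table, and all 10 passed the filter on low counts that left 14040 genes for testing. The osteoclasts of both groups came from bone marrow of C57BL/6 mice, and each group held 1 female and 2 male samples by label. Adherent marrow cells were kept for 2 days with M-CSF, the growth factor of the monocyte lineage, and then given RANKL, the cytokine that drives osteoclast formation, together with M-CSF; the time in RANKL and the age of the mice are not given in the labels. The 3 wild-type libraries are numbered 1, 4 and 6 by their column names. The other 3, numbered 2, 3 and 5, carry the label Tet2Rank–/–; Tet3aRank+/–, read here as loss of both copies of *Tet2* and of 1 copy of *Tet3*, which encode enzymes that oxidise methylated cytosine. The labels do not say what Rank or the a stands for, which cells carry the deletion, or whether libraries come from separate cultures, and the p-values cover only how these libraries spread. Libraries 2, 3 and 5 are called mutant below, as labelled.

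Osteoclasts dissolve bone and, in the same places, release signals that call in or instruct the cells that form bone and vessels. This exchange is known as coupling. Some of the signals are secreted proteins made by the osteoclast, some are made by an enzyme in it, and some sit on its surface and need cell contact. TGF-beta 1 is also laid down in bone in a latent form that resorption can release, so its transcript level is only a part of what reaches other cells.

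Total counts per library ran from 8794973 to 14267135, with the genotypes overlapping. *Tet2* was at 67.3% of the wild-type mean in the mutant libraries and *Tet3* at 117%, so the *Tet3* transcript did not show the loss that the label names; counts over a whole gene include exons outside a deleted part. The columns of libraries 5 and 6 hold a second number in their names, 1 library of each genotype, and this split is called the naming batch. Cathepsin K (*Ctsk*), a defining osteoclast protease, was present in every library but uneven, from 855 CPM in library 2 to 12109 CPM in library 6. The 16 osteoclast markers tested were all below 0 in log2 fold change (median -1.48), while 14 of 15 macrophage markers were above 0 (median 0.90). Summed CPM ran from 17378 to 43645 in wild type and 4231 to 14402 in mutant libraries for the osteoclast markers, and from 12999 to 21750 and 24243 to 30857 for the macrophage markers. Markers of other cells were also above 0 in part: 12 of 15 stromal, 7 of 10 endothelial, 9 of 9 megakaryocyte, 9 of 9 neutrophil and 3 of 4 lymphocyte markers. Every tested stromal, endothelial and neutrophil marker overlapped between the genotypes, and 1 megakaryocyte and 1 lymphocyte marker did not. Of the 16 osteoclast markers 12 were lower without overlap, against 16.9% of all genes. The edgeR fit with the naming batch as a term, described below, called 12 of the 16 lower, against 5.6% of all genes. It called 8 of 15 macrophage, 4 of 9 neutrophil, 1 of 9 megakaryocyte and 1 of 15 stromal markers higher. The share of all genes called higher there was 3.08%, and 0 endothelial or lymphocyte markers were called. Of all genes tested, 53.2% were below 0. No marker of these lists in the table was at 0 in all libraries. In a bulk library, fewer cells of a type and less RNA per cell cannot be told apart.

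No member passed in the comparison of the genotypes. *Cthrc1* had a mean of 8.13 CPM in the mutant libraries against 16.1 CPM in wild type, *Pdgfb* 74.3 against 166 CPM, and *Tgfb1* 267 against 193 CPM. These were the 3 members whose libraries did not overlap between the genotypes, 2 lower and 1 higher in the mutant. The other 7 members had overlapping libraries. Counts were scaled by the TMM method to CPM, the counts of a gene relative to the library's scaled total, and tested in edgeR with the quasi-likelihood test and Benjamini-Hochberg adjustment over all genes. At an adjusted p under 0.05, 0 of 10 members were called, against 0.0712% of all genes. At an unadjusted p under 0.05 there were 3 members, against 19.6% of all genes, and the 3 without overlap stand against 26.8% of all genes (2 lower against 16.9%, and 1 higher against 9.91%). DESeq2 called 1 member, *Cthrc1*, against 11.3% of the genes to which it gave an adjusted p. It gave none to *Wnt10b*. With the naming batch as a term edgeR likewise called *Cthrc1* alone, against 8.68% of all genes. The members split evenly around 0, with 5 below 0, where 53.2% of all genes lay, and 5 above. Their median log2 fold change was -0.08, against -0.03 for all genes tested. The member counts for lack of overlap and for calls with the naming batch thus lay near those of all genes.

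The members spanned a wide range of transcript level, compared here as CPM per kb of exon because longer transcripts give more counts. The mean over the 6 libraries was 45.6 CPM per kb for *Tgfb1* and 28.9 for *Pdgfb*, at the 92.8 and 87.8 percentile of the genes tested. *Vegfa* followed at 12.5, *Cthrc1* at 7.62 and *Bmp1* at 5.53 CPM per kb. *Efnb2* (3.18), *Lif* (2.25) and *Sphk1* (1.07 CPM per kb) came next, and *Slit3* (0.740) and *Wnt10b* (0.515 CPM per kb) were lowest, the last at the 10.9 percentile. The range of each gene over the 6 libraries overlapped that of its neighbour in this order. Within libraries, *Vegfa* lay above *Cthrc1* and *Bmp1* above *Efnb2* in 6 of 6, and the other neighbours kept the order in 4 or 5 of 6. Dividing by the longest annotated transcript kept the order and gave 89.4 for *Tgfb1* and 9.14 CPM per kb for *Bmp1*.

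**Figure D1:**
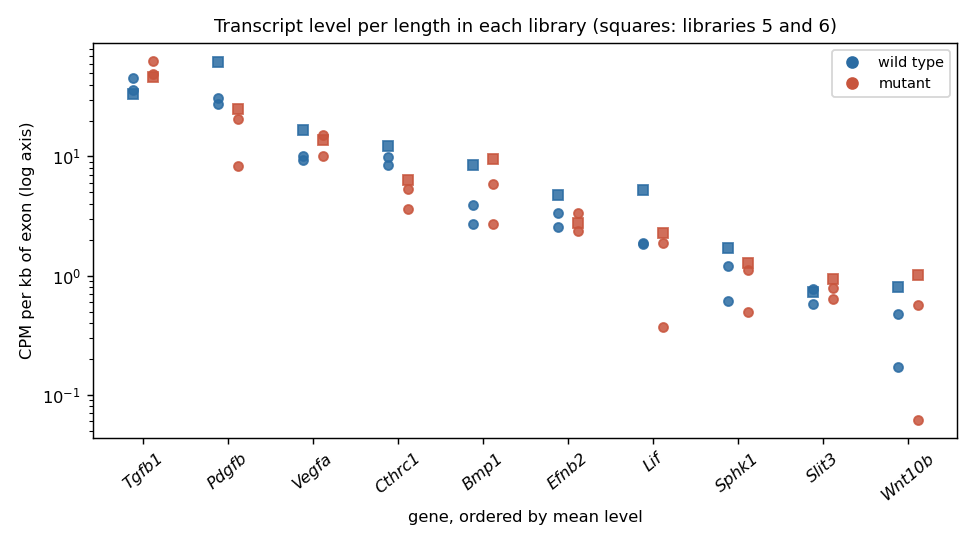
Transcript level per length of the 10 genes, as CPM per kb of exon on a log axis, with 1 point per library (blue wild type, red mutant, squares for libraries 5 and 6). Mean levels fall from 45.6 for *Tgfb1* to 0.515 for *Wnt10b*, and the ranges of neighbouring genes overlap.

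*Pdgfb* encodes the B chain of platelet-derived growth factor, which osteoclast precursors secrete and which acts on vessel-forming and mesenchymal cells through *Pdgfrb*. The gene (ENSMUSG00000000489, chromosome 15, 79995874 to 80014977, mm10, minus strand) stood at 129, 113 and 257 CPM in wild-type libraries 1, 4 and 6. In mutant libraries 2, 3 and 5 it stood at 34.4, 85.3 and 103 CPM. Every mutant value lay below every wild-type value, but the gap between library 5 and library 4 was small beside the spread within each genotype, which library 6 sets at the top and library 2 at the bottom. The group means were 166 ± 78.6 (SD, n = 3) and 74.3 ± 35.8 CPM (SD, n = 3). The fold change was -1.16 on the log2 scale (SE 0.481, edgeR adjusted p = 0.253). Adding the naming batch gave -1.12 (SE 0.308, edgeR adjusted p = 0.0714); over all alternatives the adjusted p ran from there to 0.614. Leaving out each library in turn moved the fold change between -1.48 and -0.68, the last without library 6; without library 2 it was -0.78. It was -1.02 between the means of libraries 1 to 4 and -1.31 between libraries 5 and 6. All 16 osteoclast markers were below 0 as well. Divided by the counts of each marker in turn, a step added after the values were seen, *Pdgfb* was higher in all mutant libraries for 8 of the 16, lower in all for 1 and overlapping for 7, so the order depended on the marker chosen. The part of osteoclast content in the *Pdgfb* value was not tested.

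*Cthrc1* encodes a secreted collagen triple helix repeat protein that resorbing osteoclasts release and that favours osteoblast formation. The gene (ENSMUSG00000054196, chromosome 15, 39076932 to 39087121, plus strand) stood at 15.6, 13.5 and 19.3 CPM in wild-type libraries 1, 4 and 6, against 5.81, 8.46 and 10.1 CPM in libraries 2, 3 and 5. The groups did not overlap, and library 5, the highest mutant, lay below library 4, the lowest wild type. These values rest on 134, 174 and 241 counts in wild type and 83, 83 and 136 in the mutant libraries. The means were 16.1 ± 2.96 and 8.13 ± 2.17 CPM (SD, n = 3 each), or -0.99 as a log2 fold change (SE 0.268, edgeR adjusted p = 0.128). With the naming batch as a term *Cthrc1* fell by 0.998 on the log2 scale (SE 0.215, edgeR adjusted p = 0.0392), and DESeq2 gave -0.96 with an adjusted p of 0.0371; over all alternatives the adjusted p ran from there to 0.364. The fold change ranged from -1.19 to -0.76 over the fits that left out a library, and was -1.03 among libraries 1 to 4 and -0.93 between libraries 5 and 6. The direction was therefore the same within both sides of the naming batch, while the call was made in those 2 fits and not in the others; the cause was not tested. Per count of each of the 16 osteoclast markers, *Cthrc1* was higher in all mutant libraries for 5, lower in all for 3 and overlapping for 8. This step too was added after the values were seen. The order follows from the genes' own values and depended on the marker chosen, so no test is given.

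*Tgfb1* encodes TGF-beta 1, which draws bone-forming precursors to resorbed surfaces and restrains inflammation. The gene (ENSMUSG00000002603, chromosome 7, 25687002 to 25705077, plus strand) stood at 227, 182 and 168 CPM in wild-type libraries 1, 4 and 6, against 246, 320.4 and 235 CPM in libraries 2, 3 and 5. It was the member with higher values in all mutant libraries, and the one with its lowest value in library 6, where 6 of the 10 members were highest. Library 5 lay only just above library 1. The means were 193 ± 30.8 and 267 ± 46.5 CPM (SD, n = 3 each), and the log2 fold change was 0.47 (SE 0.178, edgeR adjusted p = 0.214; 0.101 with the naming batch, and 0.0661 to 0.505 over all alternatives). It was 0.47 among libraries 1 to 4 and 0.48 between libraries 5 and 6, and ranged from 0.32 to 0.60 when a library was left out. Macrophages also express *Tgfb1*. Of their 15 markers 14 were above 0, and 11 were higher without overlap between the genotypes, against 9.91% of all genes tested. The marker *C1qb* stood at 1468, 1334 and 1513 CPM in libraries 2, 3 and 5 against 731, 533 and 455 in libraries 1, 4 and 6. The marker *Csf1r*, which encodes the M-CSF receptor, overlapped at 3154 ± 120 CPM in the mutant against 2908 ± 303 CPM in wild type (SD, n = 3 each), and *Cd68* was the 1 below 0 (-0.15 on the log2 scale). Megakaryocytes express *Tgfb1* too. Their 9 tested markers were all above 0, but the 1 without overlap was *Pf4*, named after its values were seen. The summed list ran from 98.9 to 299 CPM in the mutant and 32.6 to 80.6 CPM in the wild-type libraries, and without *Pf4* from 42.7 to 116 and 26.9 to 61.3 CPM, which overlap. The part of these cells in the *Tgfb1* value was not tested.

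Because *Tgfb1* and *Pdgfb* lay on opposite sides, their ratio within a library, which needs no scaling between libraries, was also taken. *Tgfb1* gave 1.77, 1.61 and 0.656 counts per *Pdgfb* count in libraries 1, 4 and 6. The values were 7.14, 3.76 and 2.28 for libraries 2, 3 and 5. The means were 1.34 ± 0.600 and 4.39 ± 2.49 (SD, n = 3 each). That the genotypes do not overlap in this ratio is fixed by the 2 genes' own values, and the pair was chosen after those were seen, so no test is given. Library 6 was the only one with fewer *Tgfb1* than *Pdgfb* counts.

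**Figure D2:**
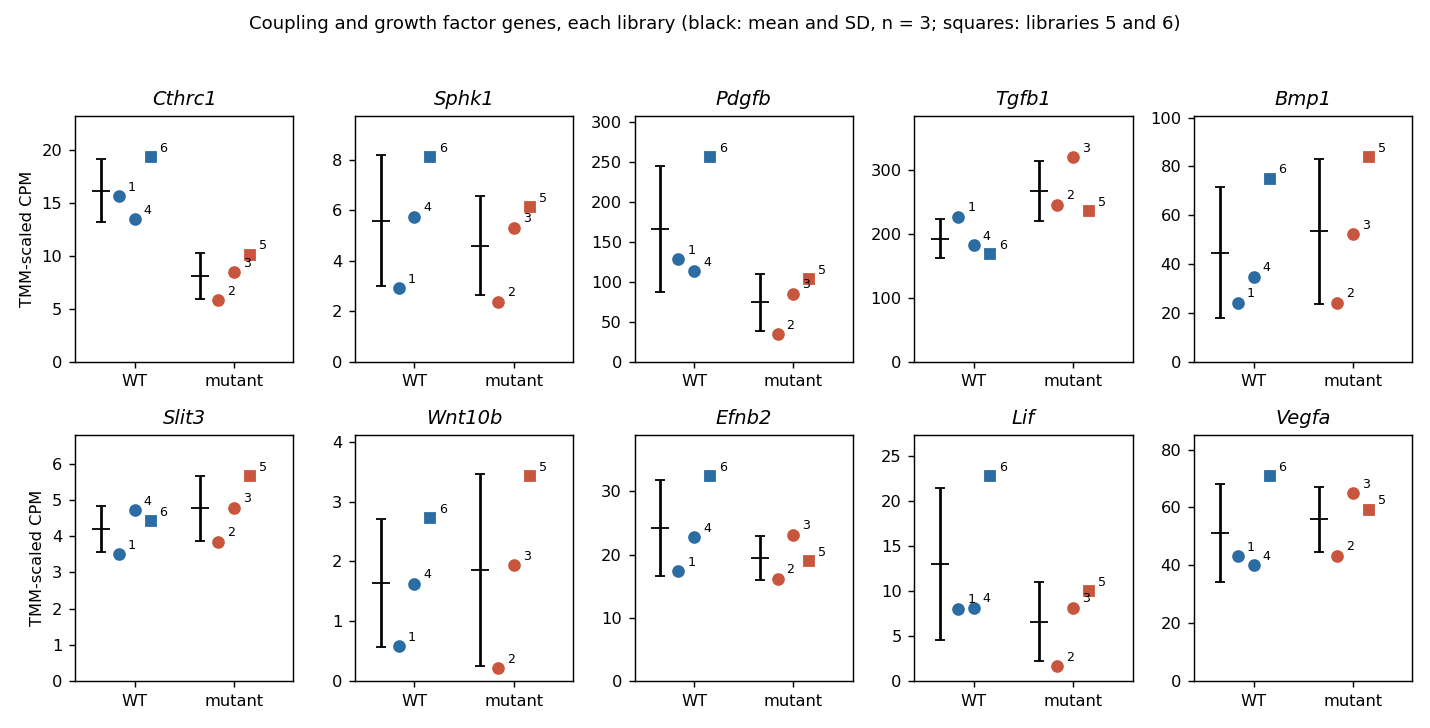
TMM-scaled CPM of each gene in the 3 wild-type (blue) and 3 mutant (red) libraries, numbered by library, with the mean and SD of each genotype in black and squares for libraries 5 and 6; each panel has its own axis from 0. *Cthrc1*, *Pdgfb* and *Tgfb1* have no overlap between the genotypes, and the other 7 do.

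The sequence before the *Tgfb1* start site is shown because the study's title concerns DNA methylation, which acts mainly at CG dinucleotides; methylation itself was not analysed here. It comes from RefSeq's annotation of GRCm38.p6, the same build as mm10. Of the 10 members, 7 had a promoter entry (*Cthrc1*, *Pdgfb* and *Bmp1* did not). The window of *Tgfb1* is chr7:25686752-25687001 on the plus strand, with each CG in capitals. The *Lif* window, shown for contrast as the matched member with the next smallest p, is chr11:4257318-4257556, plus strand, cut before the annotated start of the gene.
Tgfb1: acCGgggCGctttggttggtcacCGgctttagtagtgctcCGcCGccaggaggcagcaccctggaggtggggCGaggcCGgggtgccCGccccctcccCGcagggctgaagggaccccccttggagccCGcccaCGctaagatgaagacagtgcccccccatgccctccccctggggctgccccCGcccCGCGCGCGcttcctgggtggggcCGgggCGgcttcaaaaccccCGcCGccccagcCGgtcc
Lif: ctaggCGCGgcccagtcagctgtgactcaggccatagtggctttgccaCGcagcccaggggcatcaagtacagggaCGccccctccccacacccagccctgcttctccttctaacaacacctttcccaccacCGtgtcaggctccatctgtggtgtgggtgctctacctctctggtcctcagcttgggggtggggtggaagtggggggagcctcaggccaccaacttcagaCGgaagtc
The *Tgfb1* window held 21 CG in 250 bases and the *Lif* window 6, where the median over 32851 such windows was 6. Among the other members *Slit3* had 35, *Efnb2* 27 and *Wnt10b* 14 CG, *Vegfa* 7 to 11 over its annotated starts and *Sphk1* 4 to 19. Not all of these windows lay upstream of the gene. Only 18 bases of the *Slit3* window, with 1 CG, came before the annotated start of the gene. The *Sphk1* window with 4 CG had 75 bases before the annotated start, with 0 CG. The *Vegfa* window with 7 CG and the other *Sphk1* windows lay inside the annotated gene. Other motifs were searched on both strands over the 250 bases. TGANTCA, the letters that AP-1 factors bind, occurred once in the *Lif* window, at base 23 as printed and 228 bases before the RefSeq start site (TGACTCA), and not in that of *Tgfb1*; 6.75% of all windows hold it. GGAAA, the NFAT core, occurred once in *Lif* and not in *Tgfb1* (55.6% of all windows), and GCGTG, a core that hypoxia-inducible factors bind, once in each (28.2%). ACGTG, the other such core, was in neither (16.6%). These are descriptions of letters in a window and do not show that a factor binds there.

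*Lif* encodes leukemia inhibitory factor, a cytokine of the interleukin 6 family that acts on bone-forming cells. The gene (ENSMUSG00000034394, chromosome 11, 4257557 to 4272514, plus strand) stood at 8.05, 8.13 and 22.8 CPM in wild-type libraries 1, 4 and 6, against 1.61, 8.15 and 9.97 CPM in libraries 2, 3 and 5. The genotypes overlapped: libraries 1, 4 and 3 were level, library 6 was far above and library 2, with 23 counts, far below. The means were 12.98 ± 8.47 and 6.58 ± 4.40 CPM (SD, n = 3 each). They differed by less than the wild-type SD but by more than the mutant SD. The fold change on the log2 scale was -0.98 (SE 0.727, edgeR adjusted p = 0.544). It was -0.27 without library 6 and -0.48 without library 2, so its size rested on those 2 libraries.

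*Sphk1* encodes sphingosine kinase 1, which makes sphingosine 1-phosphate, a lipid signal that attracts and supports osteoblasts. The gene (ENSMUSG00000061878, chromosome 11, 116530925 to 116536674, plus strand) stood at 2.92, 5.73 and 8.10 CPM in wild-type libraries 1, 4 and 6, against 2.38, 5.30 and 6.10 CPM in libraries 2, 3 and 5, from 25 to 101 counts. The genotypes were interleaved (log2 fold change -0.29, SE 0.520, edgeR adjusted p = 0.862), and the sign turned to 0.06 without library 2 and 0.10 without library 6. An antisense gene, *Gm29292*, shares 4.02% of its exon bases and averaged 0.0258 CPM. Among 19 genes of sphingosine 1-phosphate metabolism and export, *Sphk1* included, 12 were above and 7 below 0 (median 0.11) and 0 passed in edgeR. The 2 with the highest mean CPM, the lyase gene *Sgpl1* and the ceramidase gene *Asah1*, stood at 665 ± 27.8 in the mutant against 588 ± 101 CPM in wild type and at 536 ± 54.6 against 477 ± 92.6 CPM (SD, n = 3 each). With the naming batch as a term 1 passed, against 8.68% of all genes: the sphingosine 1-phosphate exporter gene *Spns2*, which was named after its values were seen. It stood at 96.8, 81.1 and 205 CPM in wild-type libraries 1, 4 and 6, against 15.2, 41.7 and 58.2 in libraries 2, 3 and 5 (edgeR adjusted p = 0.0309; 0.163 without the term). Library 2 was lowest and library 6 highest there too.

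*Efnb2* encodes ephrin B2, the membrane ligand by which osteoclasts signal to EphB4 on osteoblasts. The gene (ENSMUSG00000001300, chromosome 8, 8617434 to 8661242, minus strand) stood at 17.4, 22.8 and 32.4 CPM in wild-type libraries 1, 4 and 6, against 16.2, 23.1 and 18.98 CPM in libraries 2, 3 and 5. Libraries 3 and 4 were level and only library 6 stood above the mutant range. The log2 fold change was -0.32 (SE 0.259, edgeR adjusted p = 0.588), and -0.04 without library 6. It was -0.03 among libraries 1 to 4 and -0.77 between libraries 5 and 6.

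*Vegfa* encodes vascular endothelial growth factor A, the main driver of vessel growth and a target of hypoxia-inducible factors. The gene (ENSMUSG00000023951, chromosome 17, 46016993 to 46032369, minus strand) stood at 43.2, 39.95 and 70.8 CPM in wild-type libraries 1, 4 and 6, against 43.3, 64.9 and 59.2 CPM in libraries 2, 3 and 5. Its wild-type range enclosed the mutant one. The log2 fold change was 0.12 (SE 0.261, edgeR adjusted p = 0.896). It was 0.38 among libraries 1 to 4 but -0.26 between libraries 5 and 6, so the sides of the naming batch had opposite signs. Of 22 hypoxia genes, *Vegfa* included, 12 were above and 10 below 0 (median 0.07), and 0 passed in edgeR. *Hif1a*, which encodes an oxygen-regulated subunit of the factor, stood at 154, 119 and 109 CPM in wild-type libraries 1, 4 and 6, against 234, 245 and 216 CPM in mutant libraries 2, 3 and 5. Those groups did not overlap, and the *Hif1a* difference was 0.86 on the log2 scale (SE 0.156, edgeR adjusted p = 0.0770; 0.0200 when the naming batch was added). With that term 1 hypoxia gene rose and 1 fell, against 3.08% and 5.6% of all genes. The 1 that fell was *Pdk1*, which encodes a kinase that holds back pyruvate oxidation, named after its values were seen. It stood at 69.1 ± 18.4 CPM in the mutant against 130.4 ± 51.8 CPM in wild type (SD, n = 3 each) without overlap (edgeR adjusted p = 0.0185; 0.185 without the term). *Bnip3l*, a mitophagy receptor gene, stood at 129.96 ± 15.1 in the mutant against 145.8 ± 13.01 CPM in wild type (SD, n = 3 each).

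*Bmp1* encodes a metalloprotease that trims procollagens and frees growth factors from the matrix. The gene (ENSMUSG00000022098, chromosome 14, 70474558 to 70520234, minus strand) stood at 24.1, 34.8 and 74.9 CPM in wild-type libraries 1, 4 and 6, against 24.2, 52.2 and 83.8 CPM in libraries 2, 3 and 5. Libraries 5 and 6 were the highest, followed by library 3, and the genotypes overlapped (log2 fold change 0.26, SE 0.556, edgeR adjusted p = 0.896). The mutant was above wild type by 0.37 among libraries 1 to 4 and by 0.16 between libraries 5 and 6, and the sign turned to -0.04 without library 1 and -0.24 without library 5. Stromal cells also express *Bmp1*. The summed level of 16 stromal and osteoblast markers was 1159, 1185 and 3200 CPM in wild-type libraries 1, 4 and 6, against 1039.5, 2838 and 4660 CPM in libraries 2, 3 and 5, highest like *Bmp1* in libraries 5, 6 and 3. *Col1a1*, a collagen gene of bone-forming cells, ranged from 277 to 1610 CPM. The part of stromal cells in the *Bmp1* value was not tested. In all, 4 of 10 members had libraries 5 and 6 above the other 4 (*Bmp1*, *Sphk1*, *Wnt10b* and *Lif*), against 9.33% of all genes tested.

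*Slit3* and *Wnt10b* were the least abundant. *Slit3*, a guidance ligand known to act on bone-forming and vessel cells (ENSMUSG00000056427, chromosome 11, 35121224 to 35708507, plus strand), stood at 3.50, 4.72 and 4.41 CPM in wild-type libraries 1, 4 and 6, against 3.85, 4.79 and 5.66 CPM in libraries 2, 3 and 5. It varied least of the 10 relative to its mean, with overlapping genotypes (log2 fold change 0.18, SE 0.317, edgeR adjusted p = 0.858). *Wnt10b*, a Wnt ligand that favours bone formation (ENSMUSG00000022996, chromosome 15, 98770712 to 98778150, minus strand), had 5, 21 and 34 counts in wild-type libraries 1, 4 and 6, against 3, 19 and 46 in libraries 2, 3 and 5. In CPM these were 0.583, 1.63 and 2.73 against 0.210, 1.94 and 3.42. The spread within each genotype was far larger than the difference between them (log2 fold change 0.16, SE 0.986, edgeR adjusted p = 0.970).

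Several members had the same lowest and highest library. Library 2 was the lowest for 6 of 10 members, against 25.4% of all genes tested, and library 6 the highest for 6, against 24.9% of all genes tested. Both held for 5 members, *Cthrc1*, *Sphk1*, *Pdgfb*, *Efnb2* and *Lif*, against 15.6% of all genes tested. The same libraries were the extremes of the osteoclast markers, whose median deviation from the gene means, in log2 CPM, was 1.47 for library 6 and -1.78 for library 2. Between them lay library 1 (0.51), library 4 (0.23), library 5 (-0.04) and library 3 (-0.53). The macrophage median was highest in library 2 (0.62). The part of these markers in the members' order was not tested.

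**Figure D3:**
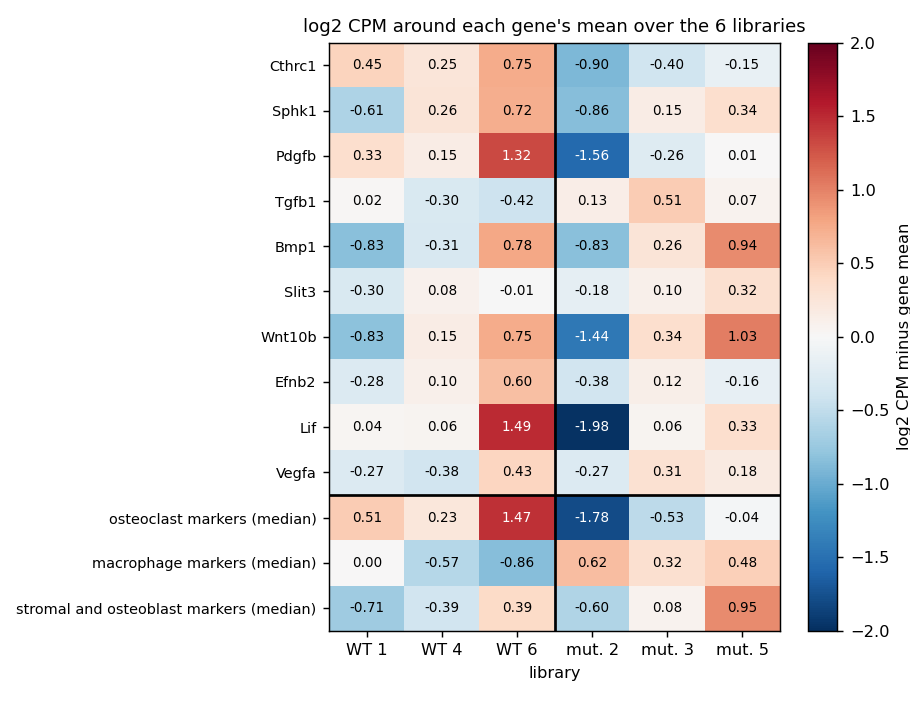
Deviation of log2(CPM + 0.5) from the 6-library mean of each gene, for the 10 genes and, under the line, the medians of 3 marker lists; columns are libraries, wild type left and mutant right. *Pdgfb* and *Lif* range from -1.56 and -1.98 in library 2 to 1.32 and 1.49 in library 6, like the osteoclast markers, while *Tgfb1* is lowest in library 6.

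**Figure D4:**
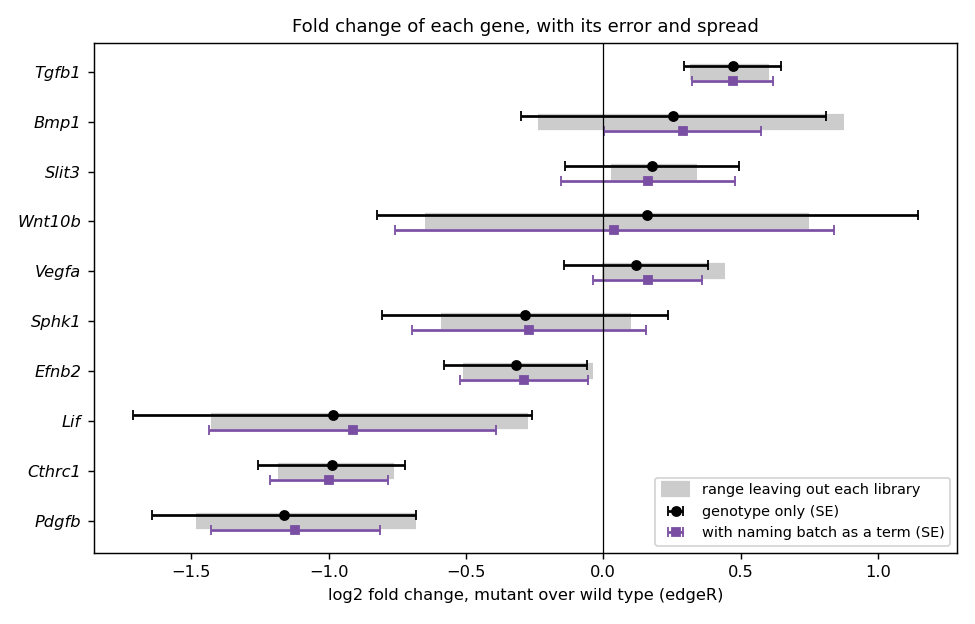
log2 fold change of mutant over wild type for each gene, from edgeR with genotype only (black, with SE) or adding the naming batch (purple, with SE); the grey bar is the range when each library is left out. The bars of *Sphk1*, *Bmp1*, *Wnt10b* and *Vegfa* cross 0, and those of the other 6 genes do not.

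Among 32 receptors of these factors, 22 were above and 10 below 0 (median 0.23), and 0 passed in edgeR (over all related lists, members included, 40 of 149 genes had an unadjusted p under 0.05, against 19.6% of all genes). *Nrp2*, a co-receptor for vascular growth factors and semaphorins, had the highest mean CPM, at 1404, 1054 and 1668 CPM in libraries 1, 4 and 6 against 483, 785 and 889 CPM in libraries 2, 3 and 5, without overlap. *Tgfbr2*, a subunit of the TGF-beta receptor, overlapped at 266 ± 37.6 in the mutant against 288 ± 66.5 CPM in wild type (SD, n = 3 each). With the naming batch as a term 1 receptor rose and 2 fell, against 3.08% and 5.6% of all genes. The rise was that of *S1pr1*, which encodes a receptor for sphingosine 1-phosphate, at 27.8, 24.1 and 38.2 CPM in wild-type libraries 1, 4 and 6, against 69.6, 78.4 and 103.9 CPM in libraries 2, 3 and 5. On the log2 scale this was 1.48 (SE 0.227, edgeR adjusted p = 0.0672; 0.00567 when the naming batch was added). The 2 that fell were *Nrp2* (edgeR adjusted p = 0.0463 with the term, 0.149 without) and *Tgfbr1* (edgeR adjusted p = 0.0403 with the term, 0.223 without). *Tgfbr1* overlapped between the genotypes, at 259 CPM in mutant library 5 against 248 CPM in wild-type library 4. *S1pr1* and *Tgfbr1* were named after their values were seen.

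Relatives of the members by family showed no call in either fit. Of 24 tested, 14 were above and 10 below 0 (median 0.48). *Sphk2*, the other sphingosine kinase, stood at 101.0 ± 5.24 in the mutant against 108 ± 13.7 CPM in wild type and was more abundant than *Sphk1* per length (25.1 against 1.07 CPM per kb). *Vegfb* stood at 30.0 ± 4.14 in the mutant against 35.4 ± 13.2 CPM in wild type (SD, n = 3 each).

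Of 27 genes of TGF-beta latency, activation and Smad signalling, *Tgfb1* included, 16 were above and 11 below 0 (median 0.15), and 0 passed in edgeR. The 2 with the highest mean CPM lay on opposite sides. *Thbs1*, an activator of latent TGF-beta, stood at 466, 344 and 989 CPM in libraries 1, 4 and 6 against 846, 1655 and 2118 CPM in libraries 2, 3 and 5, and *Mmp14*, a membrane metalloprotease gene, at 335 ± 200 in the mutant against 795 ± 503 CPM in wild type (SD, n = 3 each). With the naming batch as a term 3 rose and 2 fell, against 3.08% and 5.6% of all genes, with *Thbs1* among those that rose (edgeR adjusted p = 0.0317). *Nrros*, which encodes a protein that anchors latent TGF-beta on myeloid cells and was named after its values were seen, also rose there. It stood at 313, 315 and 312 CPM in libraries 2, 3 and 5 against 198, 181 and 159 CPM in libraries 1, 4 and 6 (edgeR adjusted p = 0.0168; 0.0619 without the term). The third that rose was *Ski*, which encodes a repressor of Smad signalling (0.0282 with the term, 0.162 without). The 2 that fell were *Itgav*, the integrin alpha v gene whose product activates latent TGF-beta, at 254 ± 118 CPM in the mutant against 556 ± 214 CPM in wild type (SD, n = 3 each), and *Smurf1*, which encodes a ubiquitin ligase for Smad proteins, at 63.7 ± 14.8 against 116 ± 17.0 CPM. Their edgeR adjusted p with the term was 0.0418 and 0.0248 (0.215 and 0.104 without it), and these 3 were named after their values were seen.

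Other genes listed as coupling factors, among them *Tnfsf11*, which encodes RANKL, lay mostly above 0. The list was not limited to products of osteoclasts. Of 19 tested, 18 were above 0, with a median log2 fold change of 0.88; 0 passed in edgeR, and 6 rose and 1 fell with the naming batch, against 3.08% and 5.6% of all genes. The 6 that rose were *Gas6*, *Igf1*, *C3*, *Cxcl16*, *Angptl4* and *Adamts1*, named after their values were seen. The macrophage markers also lay mostly above 0 (median 0.90), while all 16 osteoclast markers lay below 0 (median -1.48). The part of macrophages or other cells in these values was not tested, nor was the difference between this list and the members. The 2 with the highest mean CPM were *Lgals3*, which encodes galectin 3, at 1781 ± 335 in the mutant against 1223 ± 71.0 CPM in wild type, and *Spp1*, which encodes osteopontin, at 1499.8 ± 772 against 1144 ± 547 CPM (SD, n = 3 each). The 1 that fell was *Sema4d*, a semaphorin that restrains osteoblasts, named after its values were seen (edgeR adjusted p = 0.0272 with the naming batch, 0.105 without).

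**Figure D5:**
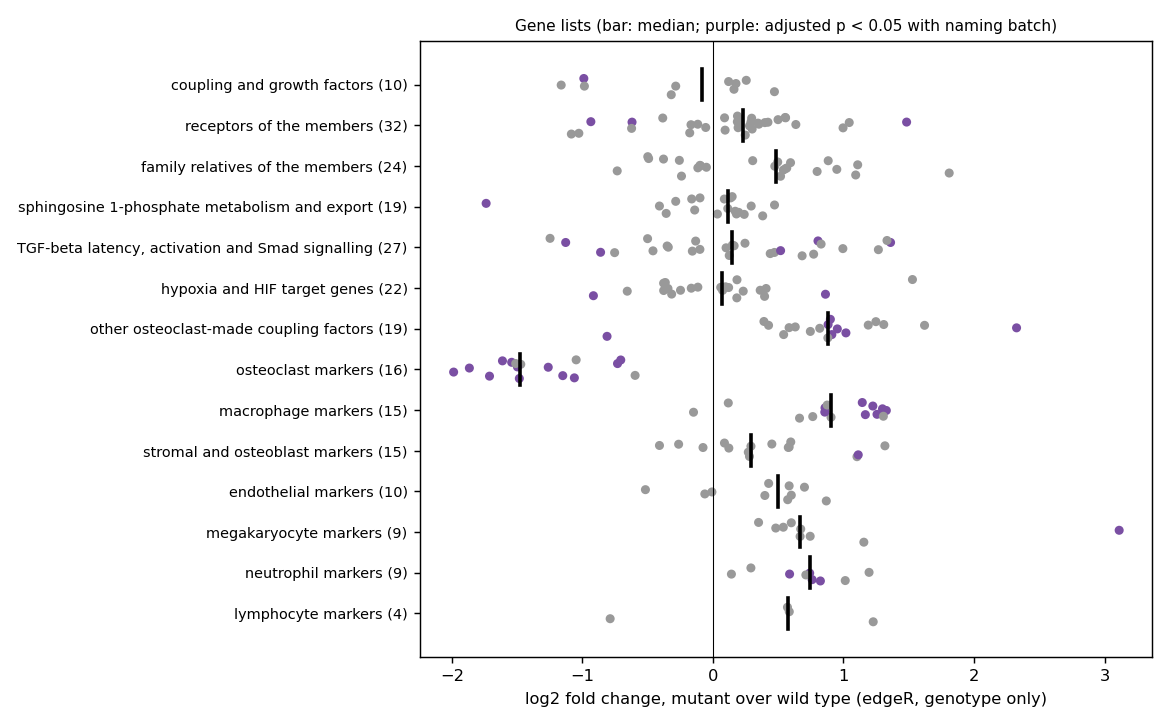
log2 fold change of every tested gene of the member list, 6 related lists and 7 marker lists (number tested in brackets), from edgeR with genotype only; the bar is the list median and purple marks an adjusted p under 0.05 with the naming batch as a term. Member genes scatter around 0 (median -0.08), osteoclast markers lie below 0 (median -1.48) and macrophage markers mostly above (median 0.90).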

How the data were processed

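The authors deposited raw whole-number counts per Ensembl gene, 1 column per library. The mouse build was mm10 and the tools were SAMtools 0.1.19, TopHat2 2.0.13 and Bowtie2 2.2.3, per the submitters' processing notes. The counting program, its settings included, is not given in the sources used here. Reads were 75 bases from 1 end of stranded libraries, per the labels' protocols. Of 23264 rows, 60 repeats with identical counts were dropped. Column names give the genotype but no replicate number, so no column was tied to a replicate or a sex. edgeR 4.0.16 under R 4.3.3 (filterByExpr, TMM, quasi-likelihood test, genotype as the only term) was fitted over 14040 genes with a threshold of 0.05; each standard error is the size of the log2 change divided by the root of its F statistic. DESeq2 1.42.0 was an alternative. Exon lengths are unions of exons in GENCODE M21, in which 99.8% of identifiers matched. Members and lists were chosen with earlier results of these data known. Named by rule were all members and, per list, up to 4 genes past the threshold or the 2 with the highest mean. On simulated counts (13574 genes), the genotype fit recovered 22% of 2-fold and 75% of 4-fold changes, and 7 of its 104 calls fell on unchanged genes (6.73%). A separate simulation used the lower variation of the fit with the naming batch and a drawn batch shift for each gene. Fitted with that term (13804 genes), these rates were 68% and 93%, and 20 of 181 calls (11.0%). The simulated counts differed, so the rates do not measure what the term gains on the same counts. Changed genes were drawn only above a floor of expected counts, so the rates do not cover genes with few counts, such as *Wnt10b*. The common biological coefficient of variation was 40.9% in the genotype fit and 23.5% with the naming batch.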

Additional observations from a re-analysis of the deposited data

How the results depend on the processing

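The count of calls over all genes moved from 10 to 88 with total-count scaling, 81 without the low-count filter, 1219 with the naming batch, 1346 in DESeq2 and 1 in libraries with 1 number in their name. Leaving out a library gave 0 to 3, with 1900 to 2676 genes at an unadjusted p under 0.05. Member calls moved from 0 to 1 (*Cthrc1*) with the naming batch and in DESeq2, and were 0 in every other fit, 0 to 0 when a library was left out. Calls in the related lists moved from 0 to 1 with total-count scaling, 2 without the filter, 19 with the naming batch and 23 in DESeq2, and ranged from 0 to 1 when a library was left out (1 without library 2). Signs of the log2 fold change held for *Cthrc1*, *Pdgfb*, *Tgfb1*, *Slit3*, *Efnb2* and *Lif* in every fit. Leaving out a library gave -0.59 to 0.10 for *Sphk1*, -0.24 to 0.88 for *Bmp1*, -0.65 to 0.75 for *Wnt10b* and -0.00456 to 0.44 for *Vegfa*; *Wnt10b* was -0.0941 in libraries with 1 number. The cause of these moves was not tested. No paired analysis was possible because the columns carry no replicate number. The standard errors of the log2 fold changes were largest for *Wnt10b* (0.986), *Lif* (0.727) and *Bmp1* (0.556).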
